A study of Homo sapiens with 6 samples.

Results

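The genes described here are 32 genes of cholesterol and fatty acid synthesis with their SREBP regulators. They were measured in K562, an erythroleukemia cell line, after knockdown of PCBP1, and are listed by name, by a rule that uses no measured value, although earlier results of these data were known when the list was made. All 32 were among the 17095 genes with an adjusted p in the comparison. The members fall into 5 SREBP regulators, 3 enzymes supplying acetyl-CoA or acetoacetyl-CoA in the cytosol, 6 enzymes of the mevalonate steps, 11 enzymes from squalene to cholesterol, 6 enzymes of fatty acid synthesis and desaturation, and the sterol transfer protein STARD4.

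K562 cells received lentivirus carrying a pLKO.1 hairpin against luciferase (shCtrl) or against PCBP1 (shPCBP1), and all libraries came from cells held in 3 µg/mL puromycin for 4 days. There were 3 poly-A RNA libraries in each group. No source used here says that the libraries came from separate transductions, so p-values measure only the spread between these libraries. PCBP1 binds C-rich RNA and also delivers iron to enzymes in the cytosol.

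SREBP-1 and SREBP-2, encoded by SREBF1 and SREBF2, are transcription factors made as precursors in the endoplasmic reticulum. SCAP escorts them to the Golgi for cleavage when sterol is scarce, and the INSIG proteins hold SCAP back when sterol is plentiful. The released factors raise transcription of the enzymes that build cholesterol from acetyl-CoA and of the enzymes that build and desaturate fatty acids. Several of those enzymes bind iron: CYP51A1 is a heme protein, and MSMO1, SC5D, SCD, FADS1 and FADS2 are membrane oxygenases or desaturases with nonheme iron.

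Depth ranged from 67066747 to 140522444 estimated counts per library. PCBP1 itself had 40566, 38409 and 37799 normalized counts in the shCtrl libraries and 6625, 7277 and 7221 in the shPCBP1 libraries (log2 fold change -2.47 ± 0.044 SE). The libraries matched their labels in this respect. The 5 erythroid marker genes, among them GATA1, TAL1, HBG2 and HBZ, lay between 36.6 and 14991 TPM (a length-scaled level that Salmon brings to the same sum in every library) in every library. Of 8 markers of T cells, B cells, monocytes, epithelium and fibroblasts, EPCAM reached 26.7 to 38.1 TPM and COL1A1 3.44 to 6.61 TPM. The T cell, monocyte and other fibroblast markers and CD79A stayed at or below 0.45 TPM, with CD3E at 0 in 1 library. Summed over the 8, the level was 46.6 to 46.8 TPM in shCtrl and 33.9 to 41.8 TPM in shPCBP1, and its part in the results was not tested. The share of mitochondrial counts was 6.18% to 6.57%. In bulk RNA, fewer cells expressing a gene and less RNA per cell cannot be told apart.

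The knockdown was accompanied by lower RNA for FASN and FADS1 and by small changes elsewhere in the pathway. By the DESeq2 Wald test with Benjamini-Hochberg adjustment, 13 of the 32 members passed an adjusted p under 0.05, of which 11 fell and 2 rose. Over all tested genes 31.2% passed, 13.5% lower and 17.7% higher. The counts per role and per list given below are to be read beside these shares. Passing alone was therefore common, and 19 members did not pass. With transcript length offsets 7 members passed, 5 of them among the 13. By limma on log2 TPM 5 passed, 4 of them among the 13. FADS2, FDFT1, HSD17B7, MVK, SCAP, SCD, SREBF2 and STARD4 missed the threshold in both of these fits. The median log2 fold change of the members was -0.07, against 0.00187 over all tested genes, and 26 of 32 members had a value below 0. Of all tested genes, 49.1% lay below MVD, the member nearest 0 at -0.003. No member passed the study's thresholds, which add a mean count over 10 and a log2 change of more than 1 in either direction and which 1.37% of tested genes passed. By edgeR the count was also 0. In the DESeq2 fit, 16 members had an unadjusted p under 0.05, as had 39.5% of all tested genes. The shCtrl and shPCBP1 libraries did not overlap for 15 members, 14 of them lower in shPCBP1. Over all tested genes, 44.2% had groups that did not overlap, counting both directions.

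**Figure D1:**
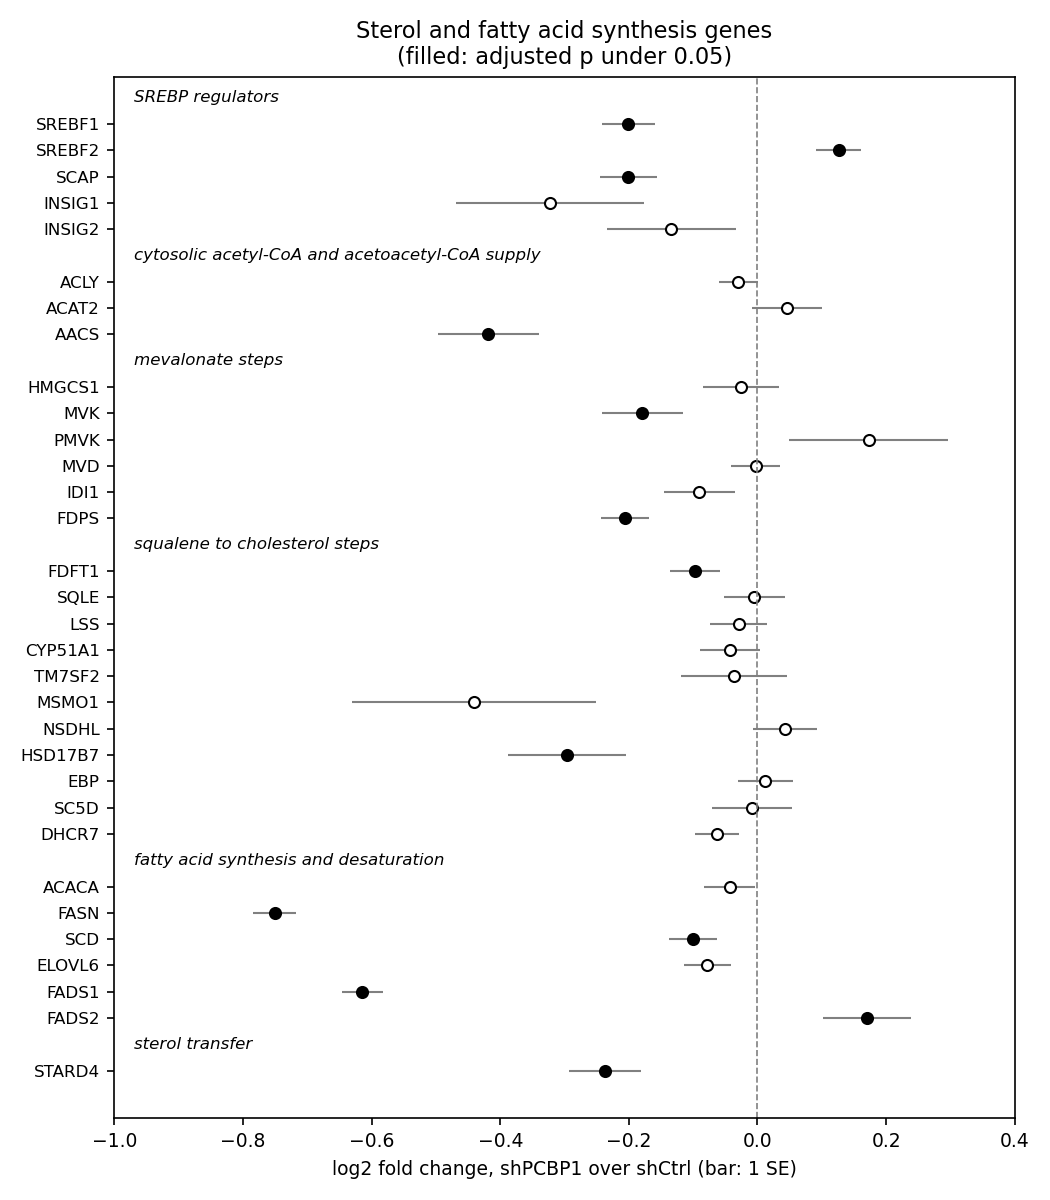
Log2 fold change of each member on the x axis (shPCBP1 over shCtrl, bars 1 SE), grouped by role, with filled points for an adjusted p under 0.05. FASN at -0.75 and FADS1 at -0.61 lie farthest from 0, and most sterol enzymes lie between -0.1 and 0.1.

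FASN, the cytosolic synthase that builds palmitate, was the member with the largest change in the count fit. Its normalized counts were 105215, 101848 and 101909 in shCtrl and 59982, 60145 and 63508 in shPCBP1. The 3 shPCBP1 libraries lay far below the 3 shCtrl libraries, at 59.4% of the control mean. The log2 fold change was -0.75 ± 0.033 SE, with an adjusted p of 8.07e-108 (DESeq2), rank 5 by p among all tested genes. By size the change was less exceptional, since 504 genes, 2.95% of those tested, had a lower log2 fold change. With transcript length offsets the change of FASN was -0.36, and by limma on log2 TPM it was -0.38, both past the threshold. Both fits depend on TPM, to which the short transcript FASN-203, described below, gave 21.8 to 27.3 TPM in shPCBP1 on few reads. Its part in these smaller values was not tested. With length offsets FADS1 (-0.61) and AACS (-0.49) changed more than FASN.

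FADS1, the delta-5 desaturase of polyunsaturated fatty acid synthesis, had 56111, 56576 and 54262 normalized counts in shCtrl and 36062, 36306 and 36682 in shPCBP1. The groups were far apart, and the shPCBP1 libraries differed from each other by a factor of only 1.02. Its log2 fold change was -0.61 ± 0.031 SE with an adjusted p of 4.87e-82 (DESeq2), rank 10 by p. The length offsets left it at -0.61.

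FADS2, the delta-6 desaturase that acts before FADS1, had 4226, 3721 and 3679 normalized counts in shCtrl and 4643, 4400 and 4043 in shPCBP1. The groups overlapped, since the third shPCBP1 library lay below the first shCtrl library. FADS2 rose with a log2 fold change of 0.17 ± 0.068 SE and an adjusted p of 0.0418 (DESeq2), but it passed in only 5 of 15 alternative fits, missing the threshold without the second or the third shCtrl library or without the first or second shPCBP1 library (adjusted p 0.158 to 0.244), and was at -0.000955 with length offsets. FADS1 (chr11:61799627-61829318, minus strand, GRCh38) lies within the span of FADS2 (chr11:61792980-61867354, plus strand), and they share 490 exon bases on opposite strands. Whether the authors' counting used strand is not given in the sources used here, so reads in those bases cannot be assigned with certainty. FADS2 also shares 49 exon bases with FEN1 on the same strand, which had a mean of 149 TPM against 23.1 TPM for FADS2.

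FADS3, a desaturase family member outside the 32 genes, lies next to them at chr11:61873519-61892051 on the minus strand, 6164 bases beyond FADS2. Its normalized counts were 12923, 13570 and 13112 in shCtrl and 9265, 9562 and 9704 in shPCBP1. The groups did not overlap, and FADS3 fell by 0.47 on the log2 scale (adjusted p 1.75e-29, DESeq2). Of the 3 desaturase genes at this locus, the outer gene and FADS1 thus fell while FADS2 had the opposite sign in the count fit.

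**Figure D2:**
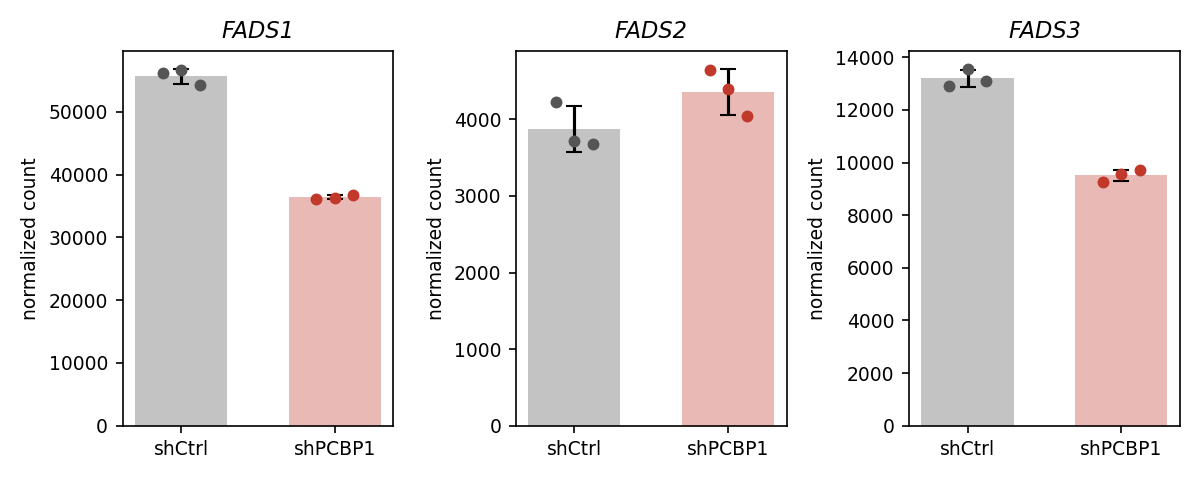
Normalized counts of FADS1, FADS2 and FADS3 (y axes, each from 0) in the 3 shCtrl and 3 shPCBP1 libraries, with points for libraries, bars for means and error bars for 1 SD. The shPCBP1 points of FADS1, 36062 to 36682, and of FADS3, 9265 to 9704, lie below all shCtrl points, and those of FADS2 overlap.

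The other fatty acid enzymes among the members changed less. SCD, which introduces the first double bond into stearate and palmitate, had 71178, 70956 and 65801 normalized counts in shCtrl and 63090, 64972 and 65847 in shPCBP1. The highest shPCBP1 value lay just above the lowest shCtrl value, so the groups overlapped. SCD fell by 0.10 (log2, adjusted p 0.0247, DESeq2), and missed the threshold without either the first or second library of either group (adjusted p 0.0896 to 0.161). SCD also missed it with length offsets and by limma on log2 TPM. ACACA, the carboxylase that makes malonyl-CoA for FASN, was at -0.04 (adjusted p 0.455), and ELOVL6, which lengthens palmitate, was at -0.08 (adjusted p 0.098). Of these 6 enzymes of fatty acid synthesis and desaturation, 3 fell, 1 rose and 2 did not pass.

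The bases of the FADS1 and FADS2 promoters are shown because these neighbouring genes, with 5′ ends close together, had opposite signs in the count fit. Each is the reference sequence of the 250 bases before a RefSeq start (GRCh38.p14), 5′ to 3′ on the gene's own strand, at chr11:61817004-61817253 (minus) for FADS1 and chr11:61816154-61816403 (plus) for 1 of the FADS2 starts. Capitals mark the GC box GGGCGG on either strand. FADS1 held 2 matches and FADS2 held 1. Another FADS2 window, at chr11:61815953-61816202, held 0.
FADS1: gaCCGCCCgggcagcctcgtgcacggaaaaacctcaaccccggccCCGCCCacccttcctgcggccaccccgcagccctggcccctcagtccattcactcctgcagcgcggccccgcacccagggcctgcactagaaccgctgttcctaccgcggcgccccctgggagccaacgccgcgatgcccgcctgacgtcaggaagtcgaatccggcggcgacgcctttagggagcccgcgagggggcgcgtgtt
FADS2: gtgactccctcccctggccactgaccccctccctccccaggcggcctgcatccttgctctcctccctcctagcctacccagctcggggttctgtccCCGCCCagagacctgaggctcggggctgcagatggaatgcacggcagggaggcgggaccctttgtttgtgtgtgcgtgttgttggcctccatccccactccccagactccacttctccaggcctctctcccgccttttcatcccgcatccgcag

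The SREBP regulators moved in different directions. SREBF1 had 14011, 13651 and 13165 normalized counts in shCtrl and 11987, 11467 and 12072 in shPCBP1. All shPCBP1 libraries were lower, and SREBF1 fell (log2 fold change -0.20 ± 0.041 SE, adjusted p 1.15e-05 by DESeq2). SREBF2 had 19258, 19527 and 18601 in shCtrl and 20987, 20732 and 20902 in shPCBP1. Here all shPCBP1 libraries were higher, and SREBF2 rose (log2 fold change 0.13 ± 0.035 SE, adjusted p 0.00174 by DESeq2), although it was at 0.00152 with length offsets and at -0.02 by limma on log2 TPM, past the threshold in neither. SCAP had 11894, 11359 and 11516 in shCtrl and 10605, 9904 and 9739 in shPCBP1. The groups did not overlap, and SCAP fell (log2 fold change -0.20 ± 0.044 SE, adjusted p 5.4e-05 by DESeq2). SCAP missed the threshold with length offsets (adjusted p 0.0547, DESeq2) and by limma on log2 TPM (adjusted p 0.0692), and SREBF1 missed it by limma on log2 TPM (adjusted p 0.0740).

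INSIG1, the sterol-induced protein that retains SCAP, had 26123, 27902 and 23041 normalized counts in shCtrl and 17565, 20445 and 23594 in shPCBP1. The third shPCBP1 library lay above the third shCtrl library, and the shPCBP1 libraries spread by a factor of 1.34. INSIG1 did not pass, at -0.32 ± 0.146 SE with an adjusted p of 0.0777 (DESeq2), though its adjusted p was 0.0109 by edgeR, 0.00979 with length offsets, 0.0493 without the third shCtrl library and 0.00444 without the third shPCBP1 library. INSIG2, its sterol-independent relative, was at -0.13 (adjusted p 0.335, DESeq2). The 5 regulators counted 1 risen, 2 fallen and 2 that did not pass.

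SREBF1 makes a longer or a shorter amino end from different starts. Of its 24 transcripts, 4 had an annotated start codon. The 3 with the upstream start codon held 23.1 to 25.8 TPM per library, where the gene had a mean of 67.9 TPM. The downstream start was 1 transcript at 0.524 to 2.43 TPM, so the share covers part of the gene and rests on a low level. Annotated transcripts that begin translation at the upstream start codon held 93.3% ± 2.08 (SD, n = 3) of the TPM with an annotated start codon in shCtrl and 93.0% ± 4.13 (SD, n = 3) in shPCBP1. The difference of -0.246 points was well within the spread of the libraries (2-sided exact permutation p = 1, where the smallest this design allows is 0.1).

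**Figure D3:**
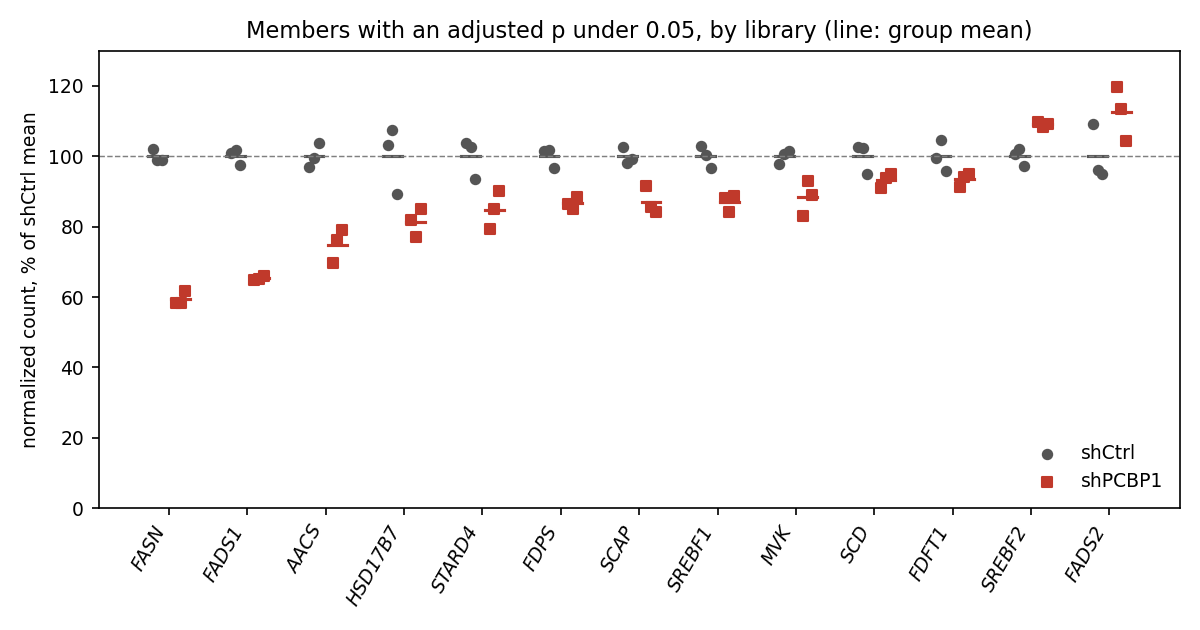
Normalized count of each library as a percentage of the shCtrl mean (y axis, from 0) for the 13 members with an adjusted p under 0.05, with circles for shCtrl, squares for shPCBP1 and short lines for group means. FASN sits at 59.4%, FADS1 at 65.3% and AACS at 74.9% of the shCtrl mean, and the remaining members lie nearer 100%.

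Among the enzymes that supply acetyl units, AACS was the member that changed. It activates acetoacetate in the cytosol for sterol and fatty acid synthesis. Its normalized counts were 1912, 1962 and 2045 in shCtrl and 1374, 1502 and 1557 in shPCBP1. The groups did not overlap, and AACS fell (log2 fold change -0.42 ± 0.078 SE, adjusted p 1.26e-06 by DESeq2). AACS had the lowest level per length of the 32 members (mean 7.54 TPM), and its pseudogene AACSP1 held 17.5% of the counts of the pair and fell by 0.44 (adjusted p 0.0118, DESeq2), so reads shared between the copies leave the value uncertain. ACLY, which cleaves citrate to acetyl-CoA, and ACAT2, which joins acetyl-CoA into acetoacetyl-CoA, were at -0.03 and 0.05 (adjusted p 0.505 and 0.587).

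Of the 6 mevalonate enzymes, 2 fell and 4 did not pass. FDPS, which makes farnesyl pyrophosphate, had 18096, 18114 and 17245 normalized counts in shCtrl and 15426, 15151 and 15772 in shPCBP1. All shPCBP1 libraries were lower, and FDPS fell (log2 fold change -0.21 ± 0.038 SE, adjusted p 7.2e-07 by DESeq2). FDPS was also the highest member per length, at a mean of 236 TPM. RUSC1-AS1, which covers 693 FDPS exon bases on the opposite strand at a mean of 8.98 TPM, fell by 0.48 (adjusted p 0.00111). MVK, mevalonate kinase, had 3058, 3139 and 3170 in shCtrl and 2590, 2907 and 2776 in shPCBP1. The groups did not overlap and MVK fell (log2 fold change -0.18 ± 0.063 SE, adjusted p 0.0183 by DESeq2), but it missed the threshold without the second shCtrl library (adjusted p 0.0522), the third shCtrl library (0.0737) or the first shPCBP1 library (0.112, all by DESeq2). MVK also missed it with length offsets and by limma on log2 TPM.

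The mevalonate enzymes that did not pass were HMGCS1, which makes HMG-CoA, at -0.03, PMVK, the second kinase, at 0.17, MVD, the decarboxylase, at -0.003, and IDI1, the isomerase, at -0.09. Their adjusted p-values ran from 0.217 to 0.967, and IDI1 passed only without the third shPCBP1 library (-0.15, adjusted p 0.0233, DESeq2). HMGCS1, a classical SREBP-2 target, had 38410, 40982 and 39542 normalized counts in shCtrl and 34210, 39178 and 43470 in shPCBP1. The shPCBP1 libraries lay on both sides of the control range.

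From squalene to cholesterol, 2 of 11 enzymes fell, none rose and 9 did not pass. FDFT1, which makes squalene, had 26633, 28017 and 25701 normalized counts in shCtrl and 24481, 25185 and 25415 in shPCBP1. The groups were adjacent without overlapping, and FDFT1 fell (log2 fold change -0.10 ± 0.039 SE, adjusted p 0.0405 by DESeq2). HSD17B7, a sterol 3-keto reductase, had 1638, 1707 and 1419 in shCtrl and 1302, 1223 and 1351 in shPCBP1. The groups did not overlap and HSD17B7 fell (log2 fold change -0.30 ± 0.092 SE, adjusted p 0.00594 by DESeq2). FDFT1 missed the threshold without either the first or second library of either group (adjusted p 0.0983 to 0.170, DESeq2), and HSD17B7 did so without the first or second shCtrl or the second shPCBP1 library (0.0513 to 0.0614). Both also missed it with length offsets and by limma on log2 TPM. STARD4, which carries cholesterol between membranes, had 9237, 9124 and 8315 in shCtrl and 7056, 7559 and 8016 in shPCBP1. It fell (log2 fold change -0.24 ± 0.056 SE, adjusted p 0.000172 by DESeq2), with no overlap of the groups, and was at -0.09 with length offsets, where it did not pass.

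MSMO1, the iron-dependent C4-methyl sterol oxidase, had 9896, 11499 and 10612 normalized counts in shCtrl and 6043, 8159 and 9376 in shPCBP1. All shPCBP1 libraries were below all shCtrl libraries, but they spread by a factor of 1.55, the widest among the members. MSMO1 was at -0.44 ± 0.189 SE with an adjusted p of 0.0605 (DESeq2) and of 0.00782 by edgeR. Without the first shPCBP1 library it passed at -0.28 (adjusted p 0.000746, DESeq2), and without the third at -0.59 (adjusted p 0.00492). The oxidosqualene cyclase LSS was at -0.03, the squalene epoxidase SQLE at -0.005, the lanosterol demethylase CYP51A1 at -0.04 and the sterol reductases TM7SF2 and DHCR7 at -0.04 and -0.06. NSDHL, a sterol dehydrogenase, the isomerase EBP and the desaturase SC5D were at 0.04, 0.01 and -0.01. The 9 enzymes that did not pass had adjusted p-values from 0.0605 to 0.955 and log2 fold changes from -0.44 to 0.04.

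Of the 6 iron-dependent members, FADS1 and SCD fell, FADS2 rose, and CYP51A1, MSMO1 and SC5D did not pass, where 31.2% of all tested genes passed. The count of 3 fell to 1 with length offsets and by limma on log2 TPM, and was 1 to 4 when a library was left out. Their median log2 fold change was -0.07, against -0.07 for the other 26 members, of which 9 fell, 1 rose and 16 did not pass, and no difference between these sets was tested.

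The libraries within a group also differed along these genes. The first shPCBP1 library was the lowest of its group for 20 of 32 members, 62.5%, against 32% of all tested genes. In shCtrl the third library was the lowest for 18 members, 56.3%, against 32.7% of all tested genes. Summed over the members, the level was 2882, 2967 and 2783 TPM in shCtrl and 2463, 2599 and 2740 TPM in shPCBP1, with no overlap. Without FASN and FADS1 the sums were 2523, 2607 and 2440 TPM in shCtrl and 2220, 2351 and 2477 TPM in shPCBP1, and the groups overlapped.

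SREBF2 and MVK are shown next because they were the only 2 of 28 members with a RefSeq window that held the sterol element TCACCCCA, and they changed in opposite directions. Windows of 250 bases before and 50 after each RefSeq start were searched on both strands. No window was matched for ACAT2, FASN, FDFT1 and SQLE. The 250 bases before the start are given from GRCh38.p14 at chr22:41832855-41833104 (plus) for SREBF2 and chr12:109573544-109573793 (plus) for MVK. Capitals mark the sterol element, the CCAAT box and the GC box on either strand. In MVK the sterol element runs directly into a GC box.
SREBF2: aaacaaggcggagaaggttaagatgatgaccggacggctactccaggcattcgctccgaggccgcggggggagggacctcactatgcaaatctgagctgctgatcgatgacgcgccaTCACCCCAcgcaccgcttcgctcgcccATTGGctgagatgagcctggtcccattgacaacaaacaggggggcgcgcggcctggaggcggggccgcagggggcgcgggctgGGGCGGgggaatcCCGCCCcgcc
MVK: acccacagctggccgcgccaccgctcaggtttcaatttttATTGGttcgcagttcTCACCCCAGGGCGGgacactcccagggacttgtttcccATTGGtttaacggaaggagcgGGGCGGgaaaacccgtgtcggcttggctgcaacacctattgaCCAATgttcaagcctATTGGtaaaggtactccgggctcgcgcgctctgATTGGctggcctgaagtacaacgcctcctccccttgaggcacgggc

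The CCAAT box was found for 20 of 28 members, 71.4%, and for 39.7% of all genes with a window. GGGCGG was found for 27 of 28, 96.4%, against 48.3% of all genes. The sterol element was found for 1.88% of all genes, and the E-box CACGTG for 4 of 28 members, 14.3%, against 8.77% of all genes. These are matches of letters in short windows, and nothing was measured here on binding. The members were not compared with genes of similar expression. The members that fell and those that did not pass both included genes with the CCAAT box, such as FDPS and HMGCS1.

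The transcripts that made up these genes were compared as the log2 ratio of each transcript's TPM to that of the rest of its gene, tested by limma. Of 96 transcripts of 26 members, 3 transcripts of 2 genes were called, by an adjusted p under 0.05 and a share difference over 5 percentage points. Over all 37838 transcripts tested, 0.687% were called. The called transcripts were FASN-203 and FASN-201 of FASN and LSS-209 of LSS, and 6 members had no transcript tested. At an unadjusted p under 0.05 (limma) there were 24 of the 96. The share of all tested transcripts at that level is not given here, so this count is not a result about these genes.

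FASN-203 is a 424-base transcript annotated as a retained intron, at chr17:82085158-82085660 on the minus strand (GRCh38). Its TPM was 4.04, 4.64 and 4.99 in shCtrl and 24.9, 21.8 and 27.3 in shPCBP1. This rise ran against the fall of the gene as a whole, and the groups were far apart. As a share of FASN TPM it was 2.53% ± 0.336 in shCtrl and 17.8% ± 1.65 in shPCBP1 (SD, n = 3), a difference of 15.2 points. The log2 ratio to the rest of the gene rose by 3.03 (adjusted p 0.00108, limma).

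FASN-201, the 8464-base transcript that encodes the full enzyme, had 145, 145 and 139 TPM in shCtrl and 77.4, 79.9 and 84.2 TPM in shPCBP1. Its share was 79.4% ± 1.27 in shCtrl and 58.0% ± 0.588 in shPCBP1 (SD, n = 3), lower by 21.5 points (adjusted p 0.00364, limma, and 0.0921 with no minimum share). Both shares are parts of the same FASN TPM, so the 15.2-point gain of FASN-203, on few reads, enters this fall. The calls of FASN-201 and FASN-203 are thus not independent. The TPM of the full-length transcript alone fell in all 3 shPCBP1 libraries.

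In estimated counts, FASN-203 had 70, 52 and 89 in shCtrl and 294, 242 and 249 in shPCBP1, while total depth was 83033656 to 140522444 estimated counts in shCtrl and 67066747 to 85121124 in shPCBP1. FASN-201 had 141161, 92358 and 152965 in shCtrl and 51707, 49029 and 44370 in shPCBP1. The short transcript thus rested on few reads, and its TPM was large because Salmon gave it an effective length of only 135 to 154 bases. Where usage was computed from estimated counts instead of TPM, FASN-203 lay under the 5% minimum share. No FASN transcript beside FASN-201 reached that minimum, so FASN was left out of that fit and FASN-201 was not tested in it. Among the member transcripts tested there, none was called. FASN-203 passed in every other alternative run.

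The levels of the most abundant transcript were also read for 5 further members that rose or fell. The main FADS1 transcript made up 90.8% of FADS1 TPM and had 158, 164 and 152 TPM in shCtrl and 98.9, 103 and 104 TPM in shPCBP1, far apart. The main SREBF2 transcript, at 85.3% of SREBF2 TPM, had 42.9, 44.1 and 41.6 TPM in shCtrl and 45.4, 46.3 and 47.3 TPM in shPCBP1, without overlap. The main FADS2 transcript, at 60.5% of FADS2 TPM, had 13.1 ± 1.38 TPM in shCtrl and 14.8 ± 1.16 TPM in shPCBP1 (SD, n = 3), and the groups overlapped. AACS-201, at 61.0% of AACS TPM, had 5.24, 5.56 and 5.68 TPM in shCtrl and 3.18, 3.88 and 4.06 TPM in shPCBP1, while MVK-202, at 34.0% of MVK TPM, had overlapping groups of 5.95 to 7.15 TPM and 6.55 to 7.44 TPM.

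The intron that FASN-203 holds is shown because PCBP1 binds C-rich RNA. It is intron 24 of 42 in FASN-201, chr17:82085157-82085237 on the minus strand (GRCh38), 81 bases long, of which FASN-203 holds 80. It lies between coding exons. Capitals mark runs of at least 3 C in the transcribed strand. There were 8 such runs, the longest of 4 C, and 50.6% of the bases were C, rank 5 among the 42 introns, whose median was 34.4%. Binding of PCBP1 to this intron was not measured, and a link between its bases and the transcript change was not tested.
FASN intron: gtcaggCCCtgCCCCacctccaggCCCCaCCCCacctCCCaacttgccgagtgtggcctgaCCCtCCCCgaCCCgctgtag

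**Figure D4:**
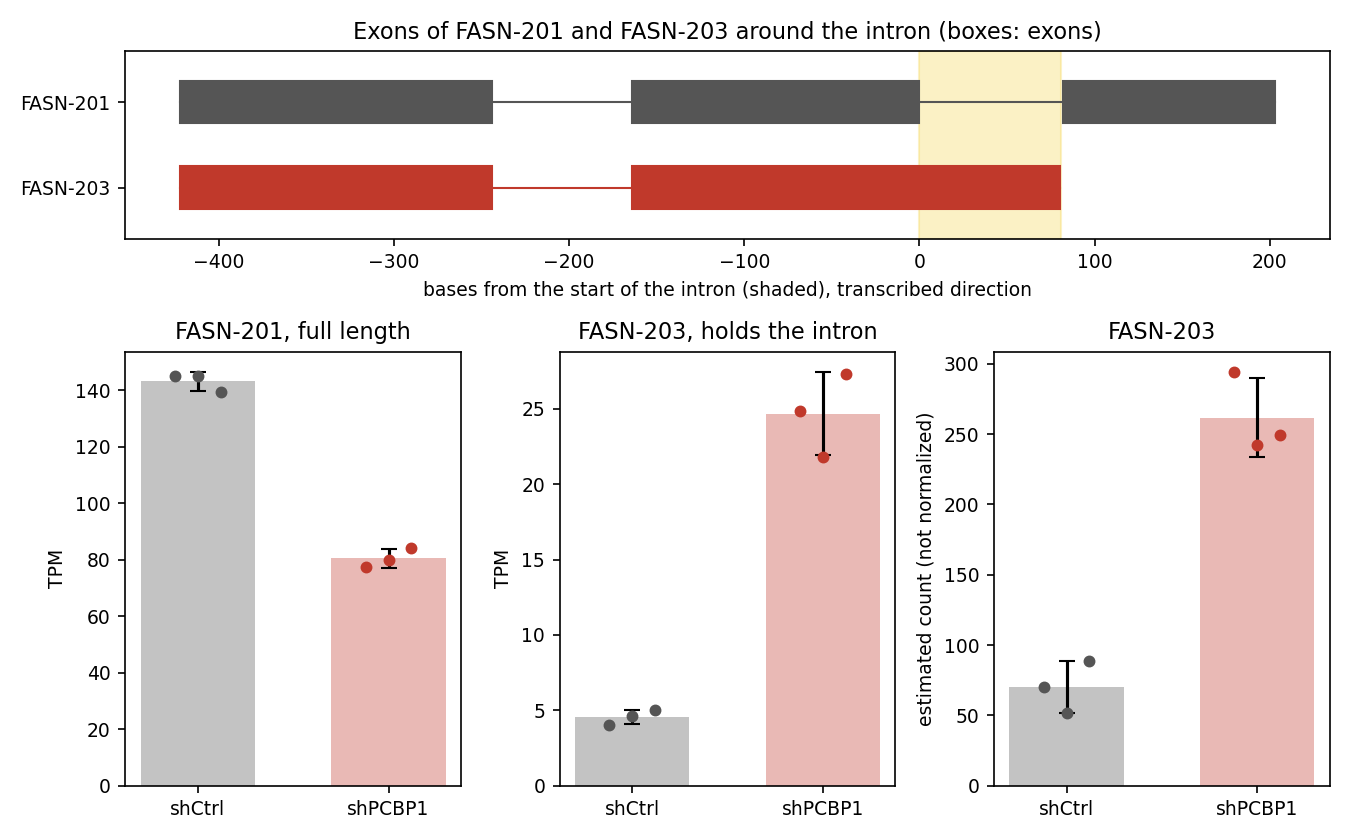
The upper panel draws exons of FASN-201 and FASN-203 as boxes against distance in bases from the start of the intron (shaded). The lower panels show TPM of the 2 transcripts and estimated counts of FASN-203 per library (points), with means (bars) and 1 SD. FASN-203 rises from 4.04 to 4.99 TPM in shCtrl to between 21.8 and 27.3 TPM in shPCBP1, while FASN-201 falls.

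LSS showed a transcript change without a change in its counts. Its normalized counts were 12300, 12465 and 11613 in shCtrl and 12361, 11777 and 11490 in shPCBP1, and the groups overlapped. LSS-209, a 251-base transcript with no defined coding sequence at chr21:46195676-46196371 on the minus strand (GRCh38), had 15.6, 16.9 and 15.2 TPM in shCtrl and 2.58, 3.41 and 5.28 TPM in shPCBP1. Its share of LSS TPM was 25.1% ± 1.00 in shCtrl and 7.09% ± 2.51 in shPCBP1 (SD, n = 3), lower by 18.0 points (adjusted p 0.0321, limma). It missed the threshold in the fits without any single library except the third shPCBP1 library (adjusted p 0.0704 to 0.111, limma), and with no minimum share (0.140). These values rested on 64, 44 and 72 estimated counts in shCtrl and 7, 9 and 12 in shPCBP1, with an effective length of 34 to 37 bases. With length offsets LSS as a gene was at -0.24 (adjusted p 0.000772, DESeq2). That fit weights transcript lengths by TPM, so LSS-209 entered it on these few counts, and its part in the value was not tested.

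The part of LSS-209 that lies outside the exons of the main coding transcript LSS-205 is shown for comparison with the FASN intron. It spans 104 bases at chr21:46196268-46196371 (minus strand, GRCh38). C made up 19.2% of it, and capitals mark its run of 3 C. No link between C content and the transcript changes was tested.
LSS-209: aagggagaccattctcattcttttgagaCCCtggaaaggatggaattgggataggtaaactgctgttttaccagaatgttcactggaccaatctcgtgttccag

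Around the core pathway, 6 further lists held 70 lipid genes, of which 64 had an adjusted p. Of these 64, 23 passed (35.9%), 13 higher (20.3%) and 10 lower (15.6%), near the 31.2%, 17.7% and 13.5% of all tested genes. In SREBP processing and sterol-regulated degradation, 5 of 10 genes rose, 1 fell and 4 did not pass, with a median of 0.09, beside 17.7% higher and 13.5% lower over all tested genes. RNF145, a ubiquitin ligase of the endoplasmic reticulum, had 3424, 3256 and 3289 normalized counts in shCtrl and 2205, 2482 and 2695 in shPCBP1. RNF145 fell by 0.44 (adjusted p 5.65e-08, DESeq2), with no overlap of the groups.

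Of 8 other SREBP target genes, 2 rose, 3 fell and 3 did not pass, beside 17.7% higher and 13.5% lower over all tested genes. ACSS2, which makes acetyl-CoA from acetate in the cytosol, had 8373, 8881 and 7968 normalized counts in shCtrl and 5291, 5709 and 5941 in shPCBP1. The groups were far apart, and ACSS2 fell by 0.57 on the log2 scale (adjusted p 7.54e-23, DESeq2). GPAM, which starts glycerolipid synthesis, fell by 0.23 (adjusted p 0.00836). The electron donors and partners of the sterol enzymes had 1 call of 6, CYB5A, a cytochrome b5, which fell by 0.35 (adjusted p 0.00639).

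In the prenyl branch, which draws on farnesyl pyrophosphate, 3 of 11 genes rose, none fell and 8 did not pass. Over all tested genes 17.7% were higher and 13.5% lower. RCE1, the protease that trims prenylated proteins, rose by 0.33 (adjusted p 0.000128, DESeq2), and NUS1, a subunit of the dolichol-forming enzyme, rose by 0.18 (adjusted p 0.000152). In sterol transport, storage and LXR, 3 of 15 genes rose, 2 fell, 6 did not pass and 4 had no adjusted p. NPC2, the lysosomal cholesterol carrier, fell by 0.35 (adjusted p 0.000473). Of 20 other fatty acid enzymes, 3 fell, none rose, 15 did not pass and 2 had no adjusted p. The calls included FADS3, given above, and the citrate carrier SLC25A1, which fell by 0.18 (adjusted p 4.27e-07).

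**Figure D5:**
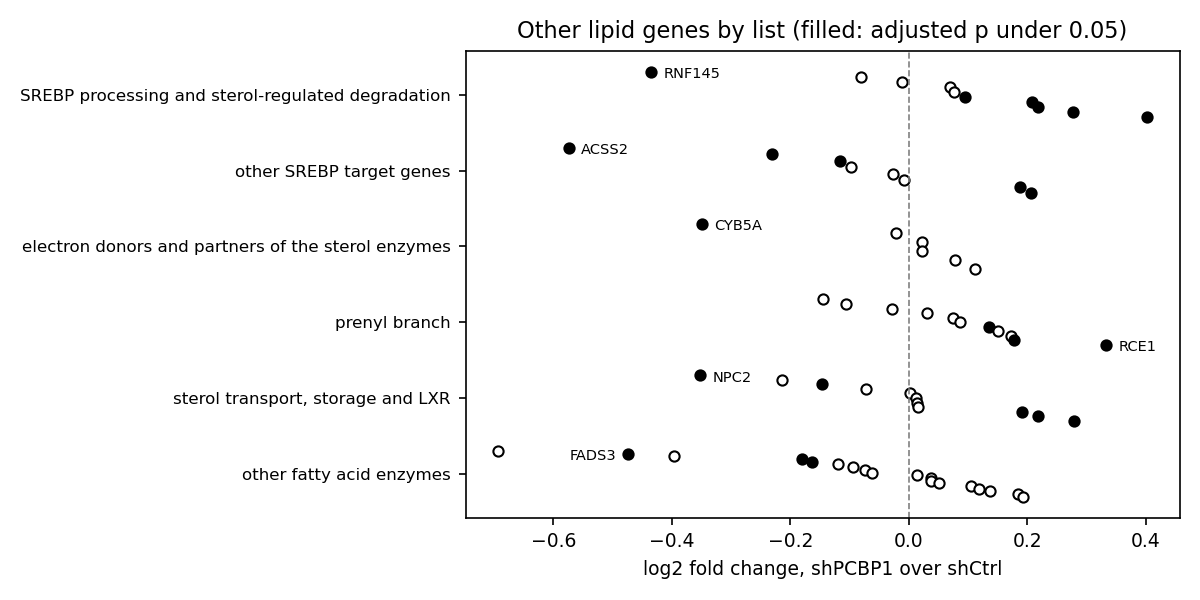
Log2 fold change (x axis, shPCBP1 over shCtrl) of genes in 6 further lipid lists, 1 point per gene, filled for an adjusted p under 0.05. ACSS2 at -0.57, FADS3 at -0.47 and RNF145 at -0.44 are the called genes farthest from 0, and open points did not pass.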

How the data were processed

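Poly-A RNA of 3 shCtrl and 3 shPCBP1 K562 libraries was sequenced by the authors, who quantified transcripts with Salmon 1.10.2. The deposited values are estimated counts, which are not normalized and need not be whole, and TPM, which Salmon scales to transcript length and to a fixed sum per library. Here 251612 of 252045 transcripts were matched to GENCODE 44 by stable identifier, and the unmatched ones held 0.136% to 0.147% of counts. Estimated counts were summed per gene, rounded, kept at a sum of at least 10, and tested with DESeq2 1.42.0 (Wald test, Benjamini-Hochberg adjustment, R 4.3.3). Normalized counts are counts divided by DESeq2 size factors. Transcript ratios used TPM plus 0.1 and limma 3.58.1, for transcripts with a mean share of at least 5% in genes of at least 1 TPM. edgeR 4.0.16 and other settings were alternatives, and the scripts were tested on simulated data.

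The members and lists were chosen with earlier results of these data known. From each further lipid list, up to 2 passing genes with the largest absolute log2 fold change were named. Total counts from 67066747 to 140522444 per library set the precision, and low-count transcripts are the least precise. Libraries of a group differed by more than counting noise (chi-square per degree of freedom 6.48 to 16.4). Antisense overlaps are uncertain because strand handling is not given in the sources used here. Promoter windows came from RefSeq (GRCh38.p14). FADS3 was named for its position as well as by the rule. Some genes that this rule or the marker lists name are not reported here.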

Additional observations from a re-analysis of the deposited data

How the results depend on the processing

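FASN, FADS1, AACS and FDPS passed in all 15 alternative fits. Over the 6 fits that each left out 1 library, SREBF1, SREBF2, SCAP and STARD4 also kept their calls, and member calls ranged from 8 (without the second shCtrl library) to 16 (without the third shPCBP1 library). In the same fits all-gene calls were 4175 to 5145, members past the study thresholds 0 to 0, calls in the other lipid lists 18 to 24, iron-dependent calls 1 to 4, the members' median -0.101 to -0.0607, PCBP1 -2.49 to -2.42, usage calls 2 to 3 among members and 118 to 162 in all, the SREBF1 difference -2.63 to 1.03 points, MVD -0.0176 to 0.00898, TM7SF2 -0.0988 to 0.00653, SQLE -0.0586 to 0.0480, EBP -0.00628 to 0.0370, SC5D -0.0408 to 0.0373, HMGCS1 -0.112 to 0.0598 and CYP51A1 -0.0920 to 0.00778. Transcript length offsets gave 7 member calls, of which 5 were main calls, and 1 iron-dependent call, with HMGCS1 at 0.0675, SC5D at 0.0995 and FADS2 at -0.000955. limma on log2 TPM gave 5 member calls, 1 iron-dependent call, 11 calls in the other lists, 2592 over all genes and a median of -0.108, with HMGCS1 at 0.0403, SC5D at 0.0784, EBP at -0.00952, SREBF2 at -0.0190 and FADS2 at -0.0198. EBP was at -0.00204 by edgeR, -0.00206 with TMM and -0.00978 with protein-coding genes only. Usage calls fell to 1 among members and 90 in all with no minimum share. On estimated counts, an alternative chosen after seeing the data, no member was called (0), and FASN was not among the genes tested. The deviations of libraries with the same number correlated at 0.138, -0.0127 and -0.134. These low values gave no sign of pairing by number, but they cannot show that such libraries were handled apart. The main fit used no pairing. The replicate block gave 12 member calls and 4297 over all genes, and usage calls of 1 among members, FASN-203, and 28 in all. The cause of these differences was not tested. Few reads limit the short transcripts.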
